A study of Mus musculus with 3 samples.

Results

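The arrays measured 58 genes of 6 carrier families, Slc1a, Slc2a, Slc3a, Slc7a, Slc16a and Slc38a, which move glucose, amino acids, lactate and related acids across membranes. Members were taken by the gene symbol alone, among 19087 genes with a value, and 57 of them are carriers. The other one, Slc7a6os, is a neighbour of Slc7a6 on the opposite strand that fits the naming rule. RNA came from 3 cell types of untreated wild-type C57BL/6N mice, male and female, between 6 and 9 weeks of age. Peripheral blood monocytes (PBMo) were sorted from blood, after lysis of red cells, as CD11b and CD115 positive cells of low side scatter. Lung macrophages (lung Mϕ) and lung dendritic cells (lung DC) were sorted from lungs that had been perfused and digested with collagenase, as CD11c positive cells of high and of low autofluorescence. The labels call the macrophages alveolar, whereas the methods describe sorting from lung homogenate. All 3 cell types were taken from each of 32 mice, giving 8 pools of 4 mice per cell type, and 12 two-colour hybridizations compared the cell types in a ring, 4 for each comparison with balanced dyes.

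Glucose enters cells through the facilitative carriers of the Slc2 family, and the lactate that glycolysis leaves behind is carried with a proton by members of the Slc16 family. Large neutral amino acids, cystine and part of the cationic amino acids use pairs of a heavy chain from the Slc3 family and a light chain from the Slc7 family, while other Slc7 members carry arginine and lysine alone. Glutamine and small neutral amino acids are taken up by Slc1a5 and by the sodium-coupled Slc38 carriers. In mouse macrophages these carriers are known for the arginine that feeds nitric oxide synthase and arginase, and for the glucose uptake and lactate release of activated cells.

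The deposited table holds 1 log2 ratio for each spot and comparison. The ratios are written Mϕ/PBMo, DC/PBMo and Mϕ/DC, are given in this order where 3 values follow each other, and are positive where the first population had more of the RNA. Mϕ/DC equalled Mϕ/PBMo minus DC/PBMo in every spot, so the comparisons are contrasts of the same fitted model, share their PBMo and hold no replicate value. No test and no error between pools could therefore be computed, and genes are described as past 2-fold at a log2 ratio over 1 or under -1. The only spread in the data lies between probes of the same gene, which is technical. Spots were matched to probes through an order of rows that was recovered from the values. Of 32 orders tried, that one placed a share of 0.907 of the variance between transcripts rather than between probes of the same transcript, and the next gave 0.413. The same order came first when the transcripts of the carrier genes were left out of the choice, and over the 23 carrier transcripts with more than 1 probe it gave 0.809 against 0.525 for the next. Of the 58 genes, 28 had more than 1 probe and 30 had 1. For Slc2a4, the insulin-responsive glucose carrier with 10 probes of the same transcript, the SD between probes was 0.0315 for Mϕ/PBMo. Each probe here is 1 spot, so these 10 may be repeated spots of the same sequence and not different probes. Over the 28 genes with more than 1 probe the pooled SD was 0.390 in the same comparison.

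Markers of the sorted cell types were highest in the population so labelled, and markers of other cells differed between the populations too. The lists were chosen with earlier results of these data known, so they are no independent check of the labels. The 14 measured markers of alveolar macrophages were all past 2-fold upwards in Mϕ/PBMo, and 10 of them in DC/PBMo. Their median in DC/PBMo, 2.77, was above that of the dendritic cell markers, 1.88. Among 16 markers of dendritic cells, DC/PBMo was past 2-fold upwards for 11 and Mϕ/DC downwards for 14. The 9 measured markers of blood monocytes all had a lower level in lung Mϕ than in PBMo. All 13 markers of NK cells were above 0 in DC/PBMo, 8 of them past 2-fold, and below 0 in Mϕ/DC, 12 of them past 2-fold. In each lung population, 5 of 6 red cell markers were below 0 relative to PBMo, and 4 were past 2-fold. For platelet markers 8 of 9 were below 0 in each, with 6 past 2-fold in lung Mϕ and 5 in lung DC. The ratios hold no levels, so no marker can be said to be absent from a population. In pooled RNA of sorted cells, fewer cells of a type and less RNA per cell cannot be told apart.

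Most carrier genes differed little between the cell types, and the 8 that did fell into arginine, neutral amino acid, cystine, lactate and glucose carriers. In Mϕ/PBMo, 5 of 58 genes were more than 2-fold higher (Slc7a2, Slc7a5, Slc3a2, Slc16a1 and Slc7a11), or 8.62%, beside 5.47% of all genes. In the same comparison 3 were lower (Slc2a6, Slc16a3 and Slc2a1), or 5.17%, beside 4.49% of all genes. In DC/PBMo, 3 were higher (Slc3a2, Slc7a5 and Slc7a2), or 5.17%, beside 4.02%, and none was lower, beside 1.09%. Between lung Mϕ and lung DC, Slc7a2 alone was higher in lung Mϕ, beside 2.74% of all genes, and the same 3 genes were lower in lung Mϕ as against PBMo, 5.17% beside 4.52%. With so few genes these shares lay near those of all genes, and nothing particular to the families as a whole is read from them. The median log2 ratios of the 58 genes were 0.02, 0.06 and -0.02 for Mϕ/PBMo, DC/PBMo and Mϕ/DC, beside 0.00 for all genes in each. In 50 of the 58 genes no comparison was past 2-fold, and in 25 all ratios were within 0.2 of 0.

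**Figure D1:**
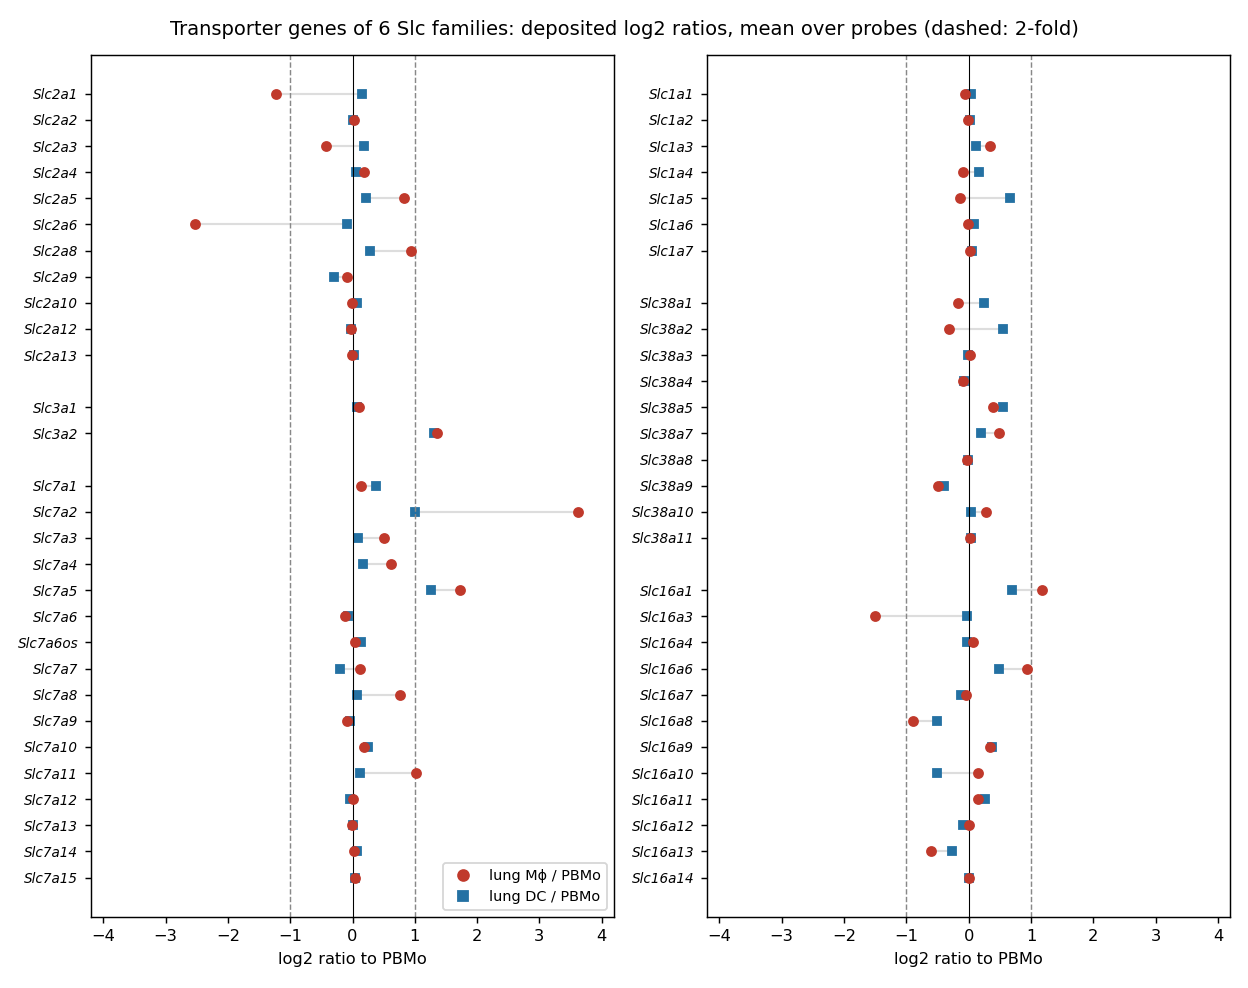
Log2 ratio to PBMo (x axis) of each of the 58 carrier genes by family, as the mean over probes, with red circles for lung Mϕ and blue squares for lung DC. Dashed lines mark 2-fold. Slc7a2, at 3.62, and Slc2a6, at -2.53, lie furthest out, and in both the lung DC symbol lies much nearer to 0.

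**Figure D2:**
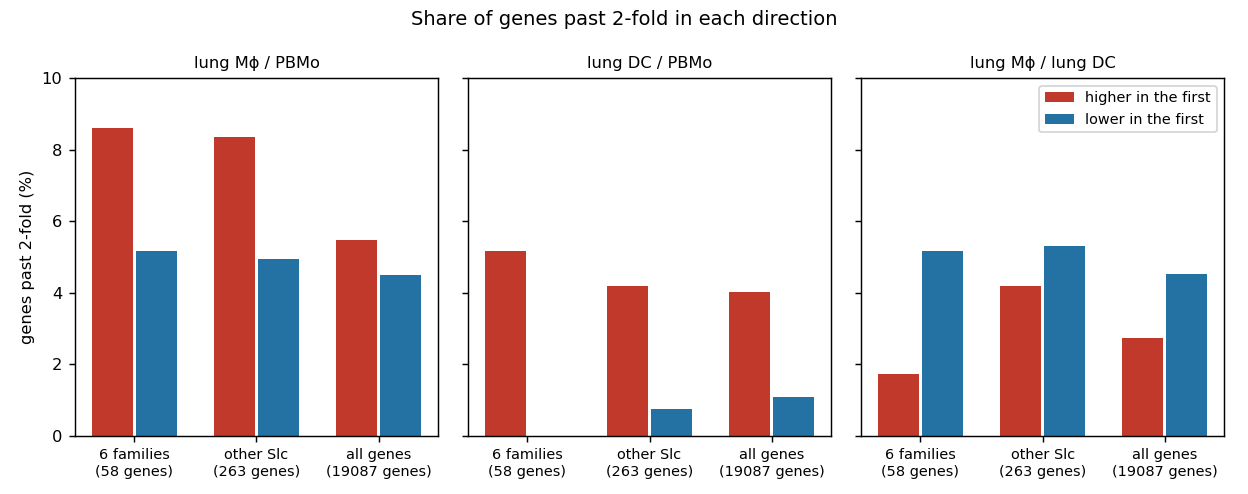
Share of genes past 2-fold (y axis, percent) that were higher (red) or lower (blue) in the cell type named first, for the 58 carrier genes, the 263 other Slc genes and all 19087 genes. The bars of the carrier genes, at 8.62% and 5.17% in Mϕ/PBMo, stand close to those of the other Slc genes, at 8.37% and 4.94%.

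Promoters of the genes lower in lung Mϕ are shown first, because Slc2a1, Slc2a6 and Slc16a3 were the only members more than 2-fold lower there and were within 2-fold between lung DC and PBMo. Slc2a1 and Slc16a3 are known targets of the hypoxia-inducible factors, whose core element ends in CGTG. Each sequence runs from 250 bases before to 50 bases after the start site, 5′ to 3′ on the strand of the gene, from RefSeq on build GRCm38.p6, and capitals mark ACGTG or GCGTG on either strand. The Slc2a1 promoter lies at chr4:119108495-119108794 on the plus strand, that of Slc2a6 at chr2:27027949-27028248 on the minus strand and that of Slc16a3 at chr11:120948817-120949116 on the plus strand.
Slc2a1: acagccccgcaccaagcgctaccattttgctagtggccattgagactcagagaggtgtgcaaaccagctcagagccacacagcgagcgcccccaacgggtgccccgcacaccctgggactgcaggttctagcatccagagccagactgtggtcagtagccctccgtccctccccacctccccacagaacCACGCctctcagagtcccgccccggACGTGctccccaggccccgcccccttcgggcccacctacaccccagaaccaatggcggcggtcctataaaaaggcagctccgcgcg
Slc2a6: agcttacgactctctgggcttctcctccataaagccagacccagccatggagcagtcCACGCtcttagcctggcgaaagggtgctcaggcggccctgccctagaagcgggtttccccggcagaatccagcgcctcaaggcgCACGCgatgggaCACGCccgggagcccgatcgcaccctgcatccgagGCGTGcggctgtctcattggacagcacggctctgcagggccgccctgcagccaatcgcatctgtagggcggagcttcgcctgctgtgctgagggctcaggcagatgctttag
Slc16a3: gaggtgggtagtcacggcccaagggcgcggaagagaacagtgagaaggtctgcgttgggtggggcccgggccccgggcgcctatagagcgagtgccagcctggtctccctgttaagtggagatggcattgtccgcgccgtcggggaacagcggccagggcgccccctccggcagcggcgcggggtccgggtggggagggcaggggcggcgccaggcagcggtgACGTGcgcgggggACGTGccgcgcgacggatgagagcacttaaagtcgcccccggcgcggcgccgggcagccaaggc

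The window of Slc2a1 held 2 matches, at 61 and 36 bases before the start site, that of Slc2a6 held 4 and that of Slc16a3 held 2, at 27 and 14 bases before it. Such short letters are common. Of 32851 promoter windows, 43.8% held at least 1 match, as did 33 of the 54 windows of carrier genes. These belonged to 29 of the 44 carrier genes with a window, and nothing particular to Slc2a1, Slc2a6 and Slc16a3 is read from the matches. A match is a description of the letters and not of binding.

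In the glucose carrier family, 2 of 11 genes were more than 2-fold lower in lung Mϕ than in both other populations, and none was more than 2-fold higher. Of all genes, 4.49% were that much lower in Mϕ/PBMo and 4.52% in Mϕ/DC, and with 11 genes nothing particular to the family is read from the count. Slc2a6, a family member found on internal membranes of macrophages, had log2 ratios of -2.53 for Mϕ/PBMo, -0.10 for DC/PBMo and -2.44 for Mϕ/DC. Lung Mϕ were thus 5.78-fold below PBMo, while lung DC and PBMo were within 1.07-fold. Slc2a1 (GLUT1), the widespread carrier of basal glucose uptake, had -1.24, 0.15 and -1.38, which puts lung Mϕ 2.36-fold below PBMo. Both rest on 1 probe each.

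Slc2a3 (GLUT3), a carrier of high affinity that leukocytes and platelets use, gave different answers by probe. The probe of the RefSeq transcript had -1.26, 0.55 and -1.82, the order of cell types seen for Slc2a1. The 2 probes of other cDNA records lay near 0 in every comparison, between -0.05 and 0.05. The mean of all 3 probes, -0.42 for Mϕ/PBMo, was therefore within 2-fold, and Slc2a3 is counted there.

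On the upper side, Slc2a8 (GLUT8), an intracellular hexose carrier, had 0.94 for Mϕ/PBMo, with probes at 0.76 and 1.11, just inside 2-fold. Slc2a5 (GLUT5), a fructose carrier, had 0.82, 0.22 and 0.60. Slc2a9, which carries urate, was the lowest of the family in DC/PBMo, at -0.30. The remaining members (Slc2a2, Slc2a4, Slc2a10, Slc2a12 and Slc2a13) had ratios between -0.07 and 0.18 in all comparisons.

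Markers of other blood cells differed between the populations as well. The NK cell markers, like these genes, were lower in lung Mϕ than in both others, with medians of -2.52 for Mϕ/PBMo, 1.19 for DC/PBMo and -3.76 for Mϕ/DC, and for 11 of 13 Mϕ/PBMo was past 2-fold downwards. Red cell markers had medians of -2.21, -1.71 and -0.50, and platelet markers of -2.17, -1.28 and -0.42. Of 10 neutrophil markers, 7 were past 2-fold lower in each lung population relative to PBMo, with medians of -1.80, -1.67 and 0.05. The part of these cells in the ratios of Slc2a1, Slc2a3, Slc2a6 and Slc16a3 was not tested.

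**Figure D3:**
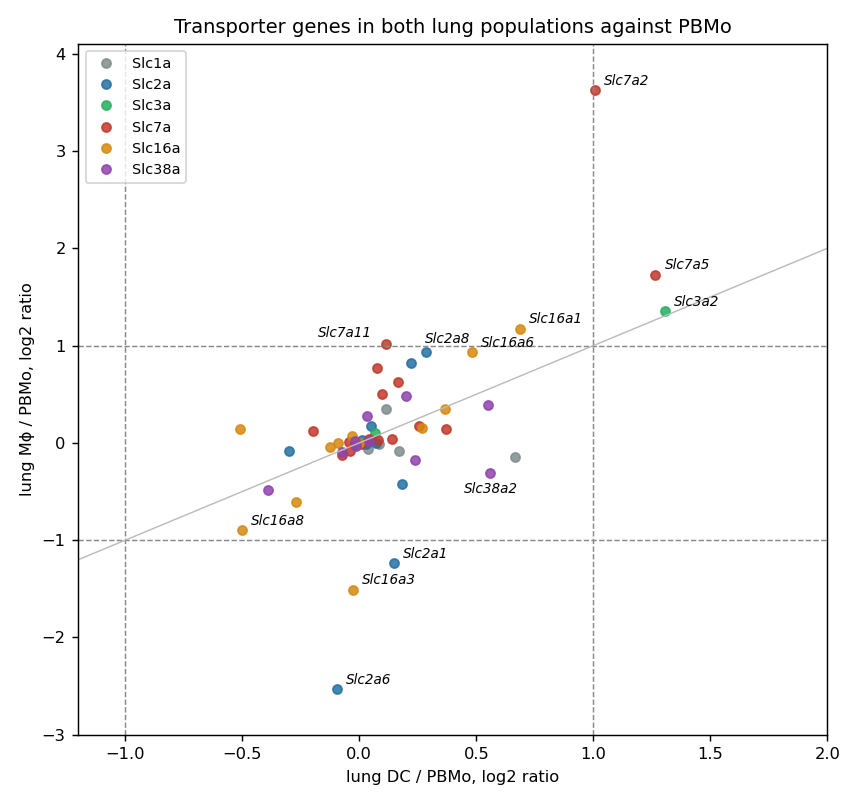
Log2 ratio of lung DC to PBMo (x axis) against that of lung Mϕ to PBMo (y axis) for the 58 carrier genes, coloured by family, with dashed lines at 2-fold and a grey line where both lung populations are alike. Both axes share the PBMo. Slc3a2 and Slc7a5 lie to the right near the grey line, at 1.31 and 1.27 on the x axis, Slc7a2 far above it, and Slc2a1, Slc16a3 and Slc2a6 far below it near 0 on the x axis.

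The main lactate carriers lay on opposite sides in lung Mϕ. Slc16a3 (MCT4), which releases lactate from cells with active glycolysis, had log2 ratios of -1.51 for Mϕ/PBMo, -0.03 for DC/PBMo and -1.48 for Mϕ/DC, from 1 probe. Lung Mϕ were 2.85-fold below PBMo and 2.79-fold below lung DC, while the latter were alike within 1.02-fold. Slc16a1 (MCT1), which carries lactate and pyruvate in either direction, had 1.17, 0.69 and 0.49, which puts lung Mϕ 2.26-fold above PBMo. Its 3 probes, all of the same transcript, had 1.95, 1.43 and 0.14 for Mϕ/PBMo, so that 1 of them showed almost no difference. Slc16a7 (MCT2), a lactate and pyruvate carrier of higher affinity, lay between -0.13 and 0.09 in its mean ratios.

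Most other members of this family carry other substrates or have none that is settled. Slc16a6 had 0.93 for Mϕ/PBMo, with probes at 0.55 and 1.31, and 0.48 for DC/PBMo. Slc16a10 (TAT1), which carries aromatic amino acids, had 4 probes between -0.78 and 1.04 for Mϕ/PBMo, on either side of 0, with a mean of 0.15. Its probes agreed on the sign for DC/PBMo, from -0.65 to -0.33, with a mean of -0.51. Slc16a8 (MCT3), a lactate carrier best known from the retinal pigment epithelium, had -0.89, -0.50 and -0.39, and Slc16a13 had -0.61, -0.27 and -0.34. The remaining 5 of the 12 genes (Slc16a4, Slc16a9, Slc16a11, Slc16a12 and Slc16a14) lay between -0.12 and 0.37.

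MCT1 and MCT4 reach the cell surface with the chaperone basigin. Its gene, Bsg, had 0.42, -0.01 and 0.44. Embigin (Emb), a partner of MCT2, was lower in both lung populations, with -1.78 and -1.08 against PBMo.

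**Figure D4:**
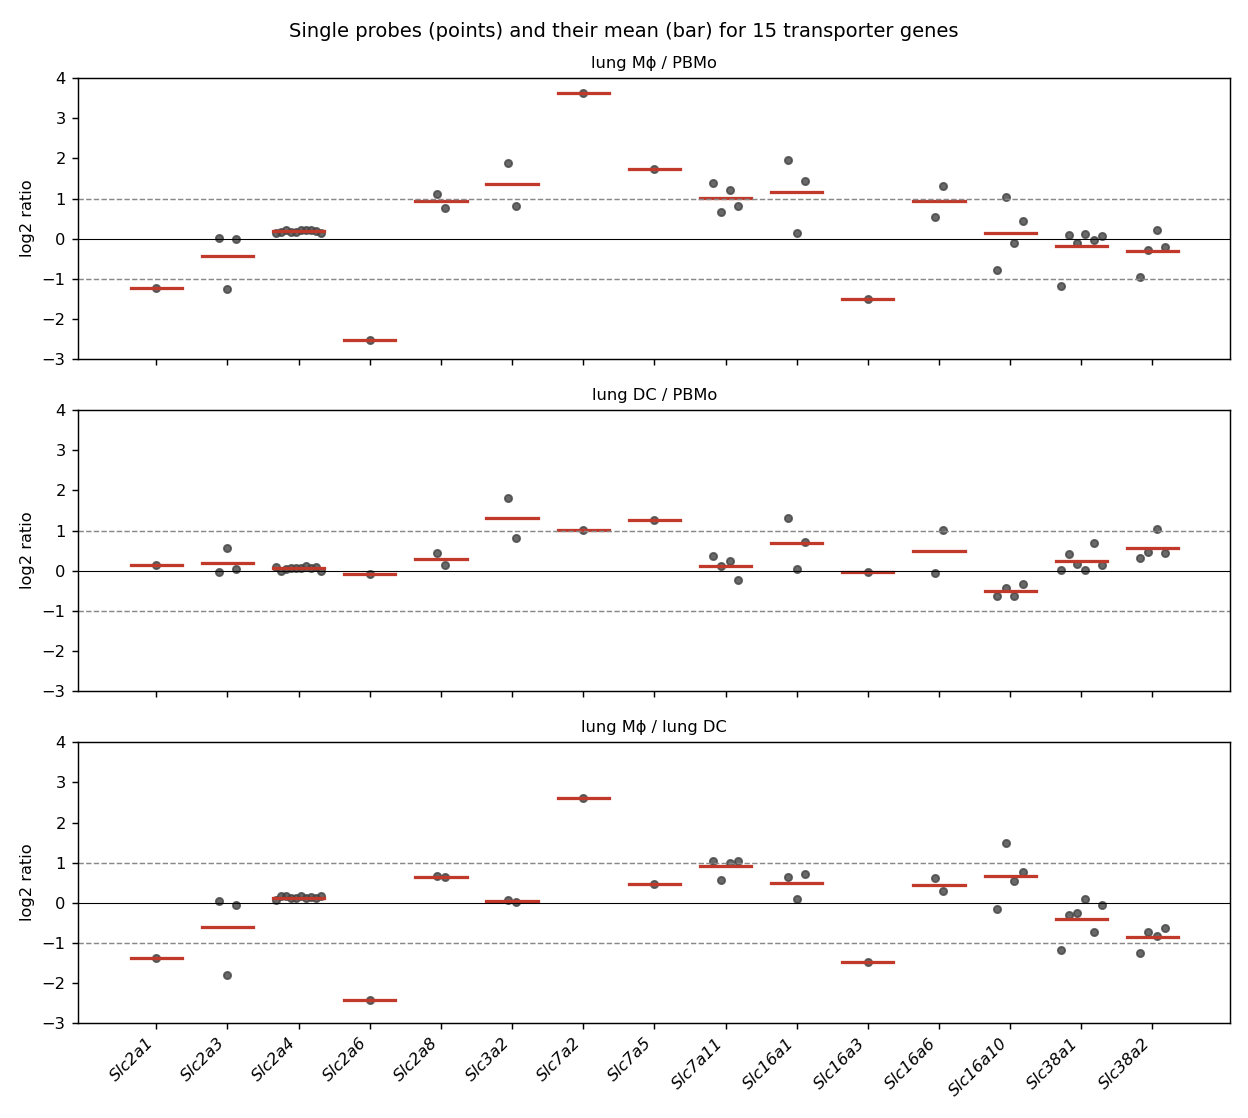
Log2 ratios (y axis) of single probes (points) and their mean (red bar) for 15 carrier genes (x axis) in Mϕ/PBMo, DC/PBMo and Mϕ/DC, with dashed lines at 2-fold. The 10 probes of Slc2a4, which may be repeated spots of the same sequence, lie together. Those of Slc2a3, Slc16a1, Slc16a10 and Slc38a1 are spread, and Slc2a1, Slc2a6, Slc7a2, Slc7a5 and Slc16a3 have 1 probe each.

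A heavy chain and a light chain that work as a pair were higher together in both lung populations. Slc3a2 (CD98, 4F2hc), the heavy chain that brings several light chains to the surface, had log2 ratios of 1.35 for Mϕ/PBMo, 1.31 for DC/PBMo and 0.04 for Mϕ/DC. Slc7a5 (LAT1), its light chain for leucine and other large neutral amino acids, had 1.73, 1.27 and 0.47. From its 1 probe, Slc7a5 was 3.32-fold above PBMo in lung Mϕ and 2.40-fold above it in lung DC. The 2 probes of Slc3a2 had 1.89 and 0.81 for lung Mϕ and 1.81 and 0.80 for lung DC, so the probes differed in size and both gave nearly equal values for the lung populations. Of the 17 measured immediate early and heat shock genes, which respond to tissue digestion, 12 were above 0 in Mϕ/PBMo and 14 in DC/PBMo. Past 2-fold upwards were 5 in Mϕ/PBMo, or 29.4% beside 5.47% of all genes, and 6 in DC/PBMo, or 35.3% beside 4.02%. Downwards were 1 in Mϕ/PBMo and none in DC/PBMo, and the medians were 0.33 and 0.74. Of 9 lung epithelium markers, 4 were past 2-fold upwards in Mϕ/PBMo and 5 in DC/PBMo, none downwards, with medians of 0.95 and 1.04. Markers of endothelium and fibroblasts had medians of 0.43 and 0.57, with 1 and 2 of 10 past 2-fold upwards. The part of digestion and of these cells in the ratios of Slc3a2 and Slc7a5 was not tested.

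Slc7a11 (xCT), the light chain that takes up cystine in exchange for glutamate and so serves glutathione synthesis, was past 2-fold in lung Mϕ alone. It had 1.02, 0.12 and 0.90, with its 4 probes between 0.66 and 1.39 for Mϕ/PBMo and all above 0 for Mϕ/DC, from 0.55 to 1.05. At 2.03-fold it lay just past the threshold, and probes of the RefSeq transcript alone gave 0.89. Its promoter is shown because the gene is a known target of the transcription factors ATF4, which binds the amino acid response element, and NRF2. The window lies at chr3:50443564-50443863 on the minus strand, from RefSeq on build GRCm38.p6, and capitals mark the letters TGATGNAA on either strand.
Slc7a11: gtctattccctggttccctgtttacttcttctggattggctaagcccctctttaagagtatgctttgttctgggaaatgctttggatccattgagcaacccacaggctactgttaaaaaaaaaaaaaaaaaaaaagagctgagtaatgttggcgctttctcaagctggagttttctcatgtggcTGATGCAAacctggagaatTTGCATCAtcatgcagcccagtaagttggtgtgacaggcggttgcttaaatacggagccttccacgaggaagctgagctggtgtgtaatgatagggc

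The window held 2 matches in opposite orientation, at 66 and 47 bases before the start site. Of all windows, 3.97% held at least 1, as did 4 of the 54 windows of carrier genes. These belonged to 3 of the 44 carrier genes with a window, Slc7a11, Slc1a4 and Slc7a7. Slc1a4 and Slc7a7 lay within 0.32 of 0 in every comparison. The gene of ATF4 itself, Atf4, had 0.19, 0.52 and -0.34, and that of NRF2, Nfe2l2, had 0.34, 1.05 and -0.71.

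Other light chains were within 2-fold. Slc7a8 (LAT2), a second carrier of neutral amino acids, had 0.77, 0.07 and 0.69, which is the order of cell types of Slc7a11. Slc7a7 (y+LAT1), which exports cationic amino acids, had 0.12, -0.20 and 0.32. Slc7a10, which carries small neutral amino acids, had 0.18, 0.25 and -0.08. Slc7a6, Slc7a9, Slc7a12, Slc7a13 and Slc7a15 lay between -0.13 and 0.05, and the heavy chain Slc3a1, the partner of Slc7a9 in kidney, between 0.03 and 0.10.

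Arginine carriers gave the largest ratio of all 58 genes. Slc7a2 (CAT-2), which imports arginine and lysine and is known from activated mouse macrophages, had log2 ratios of 3.62 for Mϕ/PBMo, 1.01 for DC/PBMo and 2.62 for Mϕ/DC. Lung Mϕ were thus 12.3-fold above PBMo and 6.14-fold above lung DC, and lung DC 2.01-fold above PBMo, from 1 probe. The alveolar macrophage markers had medians of 4.99, 2.77 and 2.23 in the same comparisons, and their part in the lung DC ratio of Slc7a2 was not tested.

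Slc7a1 (CAT-1), the widespread arginine carrier, did not share this pattern, with 0.14, 0.37 and -0.23. Its higher mean in lung DC came mostly from a probe of a cDNA record, at 0.27, 0.69 and -0.42. The probe of the RefSeq transcript lay near 0, at 0.02, 0.06 and -0.04. Slc7a3 (CAT-3) had 0.50, 0.10 and 0.41, and Slc7a4, for which no transport is settled, 0.62, 0.17 and 0.46. Slc7a14 lay between -0.05 and 0.08. All 5 genes of this branch had means above 0 in Mϕ/PBMo and in DC/PBMo, by little for Slc7a14. Of all 19087 genes, 9711 were above 0 in Mϕ/PBMo and 9731 in DC/PBMo, and with 5 genes nothing is read from the count. A probe of Slc7a14 was below 0 in DC/PBMo, at -0.03. Of the 5 genes Slc7a2 alone was past 2-fold.

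Among carriers of glutamine and small neutral amino acids, Slc1a5, Slc38a2 and Slc1a4 had their highest level in lung DC, none of them past 2-fold. By the mean of probes their lowest level was in lung Mϕ. Their Mϕ/PBMo values were smaller in size than the pooled SD between probes, 0.390, so the order of lung Mϕ and PBMo is not firm. Slc1a5 (ASCT2), a main glutamine carrier of dividing cells, had -0.15 for Mϕ/PBMo, 0.67 for DC/PBMo and -0.81 for Mϕ/DC. Slc38a2 (SNAT2), which amino acid shortage induces, had -0.31, 0.56 and -0.87. All 4 of its probes were above 0 for DC/PBMo (0.31 to 1.03) and below 0 for Mϕ/DC (-1.27 to -0.64). For Mϕ/PBMo its probes lay on either side of 0, from -0.96 to 0.20. Slc38a1 (SNAT1) had -0.18, 0.24 and -0.42, an order that for lung Mϕ and PBMo depended on the summary of its probes. One of its 6 probes, from a cDNA record of its own, had -1.18 for Mϕ/PBMo, while the other 5 lay between -0.11 and 0.10. The median over its probes was 0.01 for Mϕ/PBMo. Slc1a4 (ASCT1) had smaller ratios in the order of cell types of Slc1a5 and Slc38a2, -0.08, 0.17 and -0.25. The medians of the dendritic cell, T cell and NK cell markers had that order too. Dendritic cell markers had medians of -0.16, 1.88 and -2.28. T cell markers had medians of -0.10, 1.54 and -1.64, with 5 of 9 past 2-fold upwards in DC/PBMo, as were 8 of 13 NK cell markers, and the part of these cells in the ratios was not tested.

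The other Slc38 members, among them carriers of the lysosomal membrane, lay within 2-fold as well. Slc38a9, which reports arginine to mTORC1, had -0.49, -0.39 and -0.10, with all 4 probes below 0 against PBMo in both lung populations. Slc38a7, a glutamine exporter of lysosomes, had 0.48, 0.20 and 0.28. Slc38a5 (SNAT5), which carries glutamine and histidine, had 0.39, 0.55 and -0.16, and Slc38a10 had 0.27, 0.03 and 0.24. The remaining members (Slc38a3, Slc38a4, Slc38a8 and Slc38a11) lay between -0.09 and 0.04.

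Glutamate carriers hardly differed. Slc1a3 (GLAST) had 0.35, 0.12 and 0.23, the mean of a probe at 0.73 for Mϕ/PBMo and a probe of a cDNA record at -0.03. Slc1a1, Slc1a2, Slc1a6 and Slc1a7, which are best known from neurons, glia and retina, lay between -0.10 and 0.08 in every comparison. A ratio near 0 does not tell a gene with equal levels from one that is below detection, since the deposited values hold no intensities. The same holds for Slc7a6os, at 0.05, 0.14 and -0.10.

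Partners, regulators and enzymes were set beside the carriers. Of 43 partners and regulators, Mϕ/PBMo was past 2-fold upwards for 2, or 4.65% beside 5.47% of all genes, and downwards for 3, or 6.98% beside 4.49%, with a median of -0.01. Myc, a transcription factor that induces carriers of glucose and amino acids, had 1.84, 1.73 and 0.11, an order of cell types like that of Slc3a2. The glucose carrier Slc2a1 had another order, at -1.24, 0.15 and -1.38, and the part of Myc in the ratios of the carriers was not tested. Ddit4, an inhibitor of mTORC1, had the largest ratio of the list, at -3.89, -1.22 and -2.68. Hif1a had -0.12, -0.46 and 0.34, and Txnip, which takes glucose carriers off the surface, lay within 0.12 of 0.

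Of 31 enzymes of amino acid use, 7 were past 2-fold upwards in Mϕ/PBMo, or 22.6% beside 5.47% of all genes, and 2 downwards, or 6.45% beside 4.49%. In DC/PBMo 5 of them were upwards, or 16.1% beside 4.02%, and none downwards, beside 1.09%. Phgdh, the first enzyme of serine synthesis, had 3.73, 2.35 and 1.38, and Asns, which makes asparagine, had 2.58, 1.43 and 1.15. Ass1, which recycles citrulline to arginine, was lower in lung Mϕ, at -1.94, 0.21 and -2.15, opposite to Slc7a2. Il4i1, a secreted oxidase of aromatic amino acids, was higher in lung DC, at 2.57 against PBMo.

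Of 30 enzymes of glucose and lactate use, 4 were past 2-fold upwards in Mϕ/PBMo, or 13.3% beside 5.47% of all genes, and 2 downwards, or 6.67% beside 4.49%. Eno3, an enolase, had -3.96, -0.05 and -3.91, lowest in lung Mϕ like Slc2a1, Slc2a6 and Slc16a3. Ldhb, a lactate dehydrogenase chain, was lower in both lung populations, at -3.77 and -2.06. Pdk4, which restrains the entry of pyruvate into mitochondria, had 3.74, 1.42 and 2.32, and Aldoc, an aldolase, had 2.84, 1.52 and 1.32. The lists were chosen with earlier results of these data known, and their counts are descriptions.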

How the data were processed

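RNA of sorted PBMo, lung Mϕ and lung DC was amplified and hybridized to two-colour Agilent whole genome arrays. According to their methods, the authors analysed images with GenePix, weighted spots, used the Edwards background correction with an offset, normalized by LOESS and fitted a limma model over all hybridizations. The limma version was not given in the sources used here. The deposited log2 ratios are contrasts of that model, 1 per spot and comparison, and were used without further scaling. Signal over background could not be examined, and the number of arrays and pools limits the precision.

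Of 45220 spots, 33653 had a probe with 1 gene symbol, 56 probes with several symbols were left out and 11511 spots had no listed probe. A gene is the mean of its probes. The gene numbers of all 58 carrier genes matched their symbols in RefSeq (GRCm38.p6), which lists 62 protein-coding genes that fit the rule, and the other 4 were not analysed here. Chosen on a part of the transcripts, the order of spots gave a share of variance between transcripts of 0.913 on the 2950 left out. Genes past 2-fold were counted, with no test. The scripts were tested on simulated data.

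The members and lists were chosen with earlier results of these data known. Named were all members past 2-fold, those whose probes differed by more than 1 (log2) in a comparison, 17 set by symbol, and of each other list up to 4 genes with the largest ratios. Hif1a, Txnip, Bsg, Atf4 and Nfe2l2 were named for their roles, outside that rule, and the remaining carrier genes are given by their ranges or in short. Alternatives were other summaries of probes, centring, other thresholds and other sets of probes. Python 3.11.15, numpy 2.4.6, pandas 2.3.3 and matplotlib 3.10.9 were used.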

Additional observations from a re-analysis of the deposited data

How the results depend on the processing

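No alternative turned the direction of a named gene that was past 2-fold, an outcome that was fixed in advance for summaries of probes. Slc2a1, Slc2a6, Slc7a2, Slc7a5 and Slc16a3 have 1 probe each, so every summary returns the same value. All probes of Slc3a2, Slc16a1 and Slc7a11 were above 0 in Mϕ/PBMo, as were those of Slc3a2 in DC/PBMo. With the probe of the largest ratio in place of the mean, the genes past 2-fold were 8 higher and 5 lower in Mϕ/PBMo, 6 higher in DC/PBMo, and 3 higher and 6 lower in Mϕ/DC. Counted as single probes, 115 in all, they were 10 and 5, 6, and 4 and 6. At 1.5-fold they were 10 and 5, 5, and 6 and 6, and at 4-fold 1 and 1, 0, and 1 and 1. With the median over probes, 2 were higher in Mϕ/DC, Slc7a11 at 1.00 having joined Slc7a2. If every probe had to be past 2-fold, 2 were higher in Mϕ/PBMo, Slc7a2 and Slc7a5. Both have 1 probe, as have the 3 that stayed lower (Slc2a1, Slc2a6 and Slc16a3), so this rule could not remove them. Slc3a2, Slc16a1 and Slc7a11, with more probes, each had a probe within 2-fold, at 0.81, 0.14 and 0.66. Of 81 alternative counts and medians, the other 60 stayed within 1.5 times (counts) or within the pooled SD between probes (medians). That SD, 0.390 in Mϕ/PBMo, was far wider than the medians, so the medians could hardly leave it and nothing is drawn from their staying. Counted by single probes, the median for Mϕ/DC was 0.02 in place of -0.02. Centring on the median and averaging by transcript moved no named value across 2-fold. With probes of RefSeq transcripts alone, a setting chosen after seeing the data, Slc2a3 came past 2-fold, at -1.26 for Mϕ/PBMo and -1.82 for Mϕ/DC, and Slc7a11 fell to 0.89 for Mϕ/PBMo. The cause of the differences between probes was not tested. No paired analysis was possible because the result comes from no test and the columns carry no replicates, which also left no replicate to leave out.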

Other observations

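Of 263 genes with an Slc symbol outside the 6 families, 22 were past 2-fold upwards in Mϕ/PBMo, or 8.37% beside 5.47% of all genes, and 13 downwards, or 4.94% beside 4.49%. Slc6a4, the serotonin carrier, had log2 ratios of 3.76 for Mϕ/PBMo, 1.21 for DC/PBMo and 2.55 for Mϕ/DC, close to those of Slc7a2. Slc52a3, a riboflavin carrier, had 2.40, 1.13 and 1.27. Slc12a7, a potassium chloride cotransporter, had 2.17, 0.88 and 1.29.

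On the low side were Slc11a1 (Nramp1), a metal ion carrier of phagosomes, with -3.11, -0.28 and -2.83, Slc26a11 with -3.03, -0.52 and -2.50, and Slc12a2, a sodium potassium chloride cotransporter, with -2.42, -0.34 and -2.08. In these genes, as in Slc2a6 and Slc16a3, lung DC lay nearer to PBMo than to lung Mϕ. Slc22a23 had the highest value in DC/PBMo, 2.84, and 0.21 in Mϕ/PBMo. Of the 45 genes of Slc5a, Slc6a, Slc15a, Slc36a and Slc43a, which carry other sugars, amino acids and peptides, 5 were past 2-fold upwards in Mϕ/PBMo, or 11.1% beside 5.47% of all genes, and 1 downwards, or 2.22% beside 4.49%. These genes were named after their values had been seen, each rests on 1 or 2 probes, and no test was run.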
